A study of Mus musculus with 9 samples.

Results

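The genes described here are the Wnt ligands, their receptors and co-receptors, the secreted Wnt antagonists and a few genes around them in mouse cardiosphere-derived cells (CDCs). They were chosen by gene symbol from the protein-coding genes of the deposited table, as every Wnt, Frizzled (Fzd), Sfrp, Dkk and R-spondin (Rspo) gene together with Lgr4, Lgr5, Lgr6, Frzb, Wif1, Lrp5, Lrp6, Ror1, Ror2, Ryk, Znrf3, Rnf43, Lef1, Tcf7 and Axin2. This gave 56 of the 54532 genes in the table. The rule uses symbols and biotype and no measured value, although it was written with earlier results of these data known. They were 19 Wnt ligands, 10 Frizzled receptors, 2 Lrp co-receptors, 3 Ror and Ryk receptors, 7 R-spondins and Lgr receptors, 2 ligases, 10 secreted antagonists and 3 nuclear or readout genes.

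RNA sequencing was run on 3 groups of 3 libraries, named P0, P30 and SBT in the labels. All cells came from the heart ventricle of C57BL/6 mice. P0 libraries are primary CDCs without treatment (pECDCs), which grew out of ventricular epicardium. The donor mice were 6 weeks of age. Beyond the name P0, the labels give no passage for these libraries, whereas the methods place the primary cells used in later experiments at passage 3. P30 libraries are iCDCs (iECDCs), the same kind of cells immortalized with hTERT, the catalytic subunit of human telomerase, and taken at passage 30 without treatment. The study's methods describe a lentivirus with the CMV promoter before hTERT and selection with puromycin, so P0 and P30 differ in hTERT, in the virus, in selection and in time in culture. SBT libraries are labelled as iCDCs at passage 30 treated for 3 days with SB431542, a small molecule that blocks the type I receptor kinase of TGF-β. The SB431542-treated sample that the study's methods name for RNA sequencing is an epithelial clone derived from pECDCs, and the methods do not say whether it is the SBT group here, which is taken as labelled. Should it be, the inhibitor could not be told apart from clone and immortalization. The labels do not say whether the libraries of a group came from separate cultures, and the methods give 2 biological replicates per condition against the 3 libraries here, so p-values measure only the spread between these libraries, which may be technical.

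Wnt proteins are secreted, lipid-modified ligands that bind Frizzled receptors at the cell surface. With the co-receptors Lrp5 and Lrp6 they stop the destruction of β-catenin, which then acts with the DNA-binding proteins Lef1 and Tcf7, whereas ligands such as Wnt5a act largely through Ror and Ryk receptors without β-catenin. Sfrp proteins, Frzb and Wif1 bind Wnt outside the cell, Dkk1 and Dkk2 bind the Lrp co-receptors, and R-spondins with Lgr receptors keep the ligases Znrf3 and Rnf43 from removing Frizzled from the surface. In the heart, Wnt signals are known for their part in the epicardium, where epithelial cells become mesenchymal, and in fibrosis after injury.

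Total counts ran from 16568306 to 23951392 per library. Within P0, pairs of libraries differed by a chi-square of 2.70 to 4.23 per degree of freedom over genes, where 1 would be sampling noise, so no library was a copy of another. P30 replicate 3 stood apart from the other P30 libraries (24.9 and 30.8, against 4.61 between those), and SBT replicate 2 stood apart from the other SBT libraries (70.3 and 71.5, against 3.79). Of the 28 Wnt genes described by name below, 27 had an FPKM (fragments per length of the gene and per size of the library) in SBT replicate 2 outside the range of SBT replicates 1 and 3, and 17 of these 27 lay between the mean of SBT replicates 1 and 3 and the P30 mean. The same count was not made over all genes, so it describes this library and does not set the Wnt genes apart. The summed FPKM of 7 TGF-β target genes was 2295 to 2360 in P0, 2846, 3004 and 4321 in P30 replicates 1, 2 and 3, and 249, 641 and 265 in SBT replicates 1, 2 and 3. All 7 mesenchymal and CDC markers were at 3.93 FPKM or more in each library, and their sum was 898 to 917 in P0, 779 to 864 in P30 and 645 to 1137 in SBT. Of 11 mesothelial and epithelial markers, Krt19 (18.2 to 37.9 FPKM) and Tjp1 (9.97 to 15.6) were present in each library, Upk3b reached 1.36 FPKM in SBT against at most 0.166 in P0 and P30, Wt1 reached 0.396 in SBT and at most 0.0921 elsewhere, and Epcam, Cdh1 and Krt8 were at or under 0.0283. In SBT, 3 of the 11 had a mean of at least 1 FPKM. The list summed to 31.9 to 32.7 in P0, 39.0 to 42.1 in P30 and 39.1 to 51.8 in SBT. The sum of 5 endothelial markers was at most 0.168 FPKM, and among 5 haematopoietic markers Ptprc reached 0.0110 and Cd3e was at 0 throughout, while Lyz2 and Cd68 brought the sum to 2.02 to 2.56 in P0, 3.99 to 4.41 in P30 and 1.95 to 2.82 in SBT. The sum of 4 smooth muscle markers was 721 to 744 in P0, 817, 853 and 1922 in P30 and 139, 331 and 139 in SBT, and that of 4 cardiomyocyte markers was at most 1.68. The part of any of these in the results below was not tested, and in bulk RNA fewer cells of a type and less RNA per cell cannot be told apart.

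The SBT libraries differed from the P30 libraries by the largest folds in Sfrp2, Wnt16 and Lgr6, and the 250 bases before the annotated start of these genes are shown for that reason. Of these only Sfrp2 went far above 1 FPKM, as the higher group mean was 0.830 for Wnt16 (SBT) and 1.29 for Lgr6 (P30). The sequences are from RefSeq's promoter table on GRCm38.p6, printed along the gene's strand, with capitals for a match to the SMAD motif CAGACA on either strand, SMAD proteins being the DNA-binding effectors of TGF-β receptors.
Sfrp2 (chr3:83766071-83766320, plus strand): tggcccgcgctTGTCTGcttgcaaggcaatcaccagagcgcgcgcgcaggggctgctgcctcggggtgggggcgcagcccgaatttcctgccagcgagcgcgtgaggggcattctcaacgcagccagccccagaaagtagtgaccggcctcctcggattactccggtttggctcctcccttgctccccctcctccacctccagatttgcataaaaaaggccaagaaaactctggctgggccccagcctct
Wnt16 (chr6:22287977-22288226, plus strand): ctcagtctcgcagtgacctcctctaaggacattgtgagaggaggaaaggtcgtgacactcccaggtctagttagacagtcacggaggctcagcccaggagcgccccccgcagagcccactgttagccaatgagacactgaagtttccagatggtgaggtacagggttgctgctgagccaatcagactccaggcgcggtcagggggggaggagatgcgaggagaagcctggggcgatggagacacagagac
Lgr6 (chr1:135105277-135105526, minus strand): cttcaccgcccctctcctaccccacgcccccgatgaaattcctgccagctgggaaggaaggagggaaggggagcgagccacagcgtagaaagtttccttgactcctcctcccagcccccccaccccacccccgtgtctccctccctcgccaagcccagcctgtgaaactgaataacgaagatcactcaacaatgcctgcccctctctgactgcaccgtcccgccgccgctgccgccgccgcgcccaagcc
The Sfrp2 window held 1 match, on the minus strand and beginning 239 bases before the start, and the other windows held none. None of the 3 windows held CTTTGAA or CTTTGAT, the letters searched on both strands for Tcf and Lef proteins. A window was found for 38 of the 56 members, with 46 windows in all, and Sfrp1, Dkk3, Wnt5a, Lrp5 and Lrp6 had none in the table. A SMAD match stood in 3 of the 46 member windows (6.52%) and in 17.1% of all 32817 windows of this length, and a Tcf or Lef match in 3 (6.52%) and 7.48%. The Sfrp2 and Lgr6 windows each held 16 CpG and the Wnt16 window 9, against a median of 6 over all windows.

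Fewer Wnt genes were expressed than the families hold. A mean of at least 1 FPKM in at least 1 group was reached by 24 of the 56 members, and 4 more (Wnt4, Wnt16, Fzd9 and Lef1) passed a test at lower levels. Counts were compared with edgeR's quasi-likelihood test, and an adjusted p (Benjamini-Hochberg over all genes tested) under 0.05 was taken as a call. Of the 56 members, 23 were too low to be tested in any comparison, and members that passed the filter only because 1 group was high had to differ, so that counts over the tested members are descriptions. Between P30 and P0, 30 members were tested. Wnt5a and Lef1 rose in P30 (6.67% of those tested, against 7.21% of all genes), and 9 fell (30.0%, against 9.21%), namely Fzd1, Fzd4, Fzd6, Lrp5, Lrp6, Rspo3, Dkk2, Frzb and Sfrp1. Over the 30 tested members the median log2 fold change was -0.18, against -0.0018 over all genes tested. Between SBT and P30, 31 were tested. In SBT 11 rose (35.5%, against 16.0% of all genes), namely Fzd1, Fzd5, Fzd7, Lrp5, Lrp6, Ror1, Wnt16, Wnt4, Dkk3, Sfrp1 and Sfrp2. Another 6 fell (19.4%, against 14.0%), namely Fzd2, Fzd6, Fzd9, Lgr6, Wnt5a and Lef1. Among these calls, Sfrp2, Wnt16 and Wnt4 passed the filter through SBT alone, and Lgr6, Lef1 and Fzd9 through P30 alone. Their calls therefore add nothing to the shares as support. Over the 31 tested members the median was 0.11, against 0.0014 over all genes. The comparisons share the P30 libraries, so a gene high or low in P30 alone moves in opposite directions in them. Without P30 replicate 3 the first comparison called 17 members among 31.7% of all genes, and without SBT replicate 2 the second called 24 among 50.2% of all genes. Without P30 replicate 1 the second called 11 members among 12.3% of all genes, so the members' counts moved with those of the whole table.

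**Figure D1:**
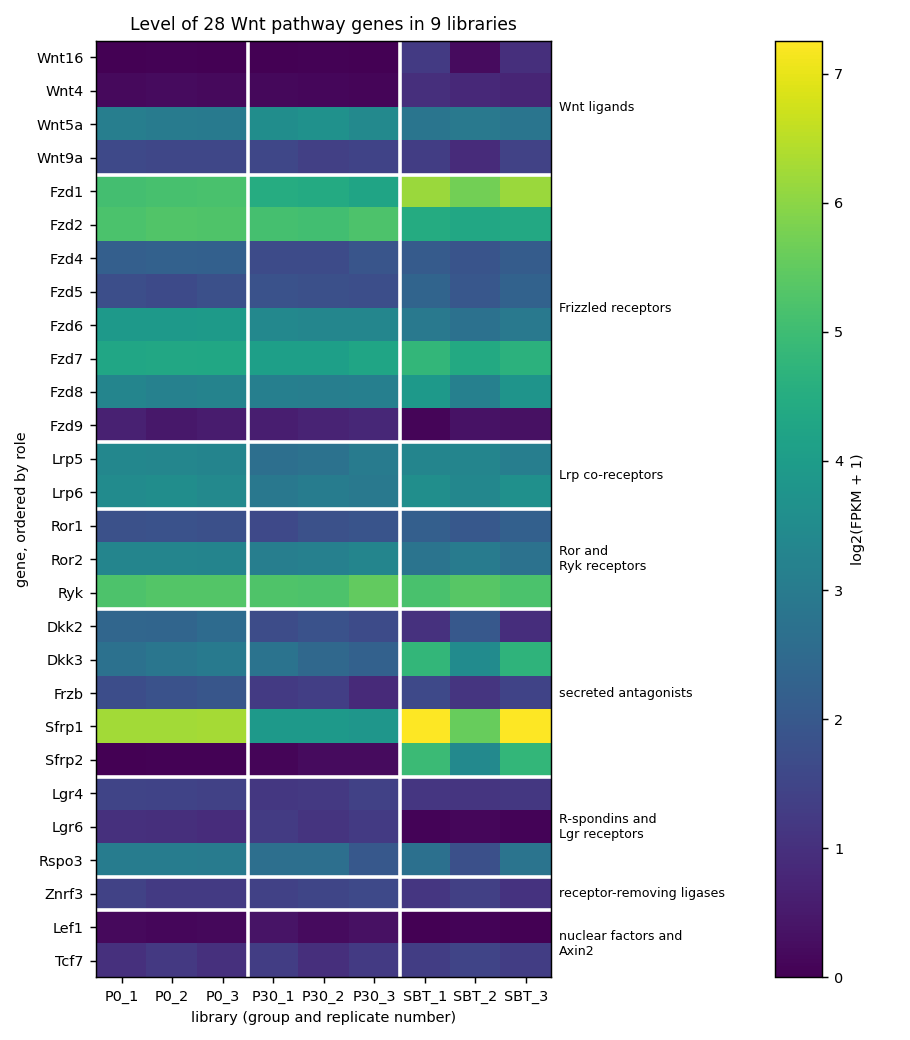
Colour gives log2(FPKM + 1) for the 28 Wnt genes described by name (rows, ordered by role) in the 9 libraries (columns, 3 per group). Sfrp1, Fzd1, Fzd2 and Ryk are the bright rows, Sfrp1 is dimmer in the 3 P30 libraries, and Sfrp2 and Wnt16 are near 0 in the P0 and P30 columns, with SBT replicate 2 dimmer than SBT replicates 1 and 3 in Sfrp1, Sfrp2, Dkk3 and Wnt16.

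Among the ligands, Wnt5a was the most highly expressed in each group and held 68.3%, 76.4% and 62.2% of the summed Wnt FPKM in P0, P30 and SBT. Wnt5a, the main ligand of the β-catenin-independent branch (chr14:28504750-28527448 on GRCm38), was at 7.63, 7.13 and 6.81 FPKM in P0 replicates 1, 2 and 3, at 10.8, 11.8 and 9.76 in P30 and at 6.13, 6.67 and 6.01 in SBT. The P30 libraries lay above all the others. Wnt5a rose in P30 against P0 by 0.58 ± 0.0845 on the log2 scale (± standard error, adjusted p = 0.0023) and was lower in SBT than in P30, with a log2 fold change of -0.77 ± 0.109 (adjusted p = 0.00263). Without P30 replicate 3 these values were 0.65 and -0.86, and without SBT replicate 2 the second was -0.82.

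Wnt4, a ligand known from kidney and gonad development, was at 0.136, 0.156 and 0.133 FPKM in P0, at 0.118, 0.102 and 0.0621 in P30 and at 0.979, 0.794 and 0.673 in SBT. These levels rest on 14, 13 and 13 reads in P0, 10, 7 and 4 in P30 and 72, 70 and 51 in SBT. The SBT libraries, SBT replicate 2 included, lay above the other 6, and Wnt4 rose 8.46-fold against P30 (log2 fold change 3.08 ± 0.326, adjusted p = 0.00102), whereas between P30 and P0 the log2 fold change was -0.56 (adjusted p = 0.308). Wnt16 had 1, 3 and 2 reads in P0, 1, 2 and 0 in P30 and 104, 14 and 77 in SBT. Its level in SBT was therefore 1.36, 0.153 and 0.977 FPKM, and replicate 2 was closer to the untreated groups than replicates 1 and 3 were. The SBT to P30 ratio of counts per effective library size was 59.8, with a 95% interval of 20.2 to 293 that covers counting error only (adjusted p = 0.00717), and the fitted log2 fold change, which depends on the prior count at such levels, moved from 5.81 to 6.70 without P30 replicate 2. Between SBT and P30, Wnt4 and Wnt16 passed the filter on low counts through SBT alone, so their adjusted p is a description.

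Wnt9a was at 2.06, 1.93 and 1.90 FPKM in P0, at 1.90, 1.59 and 1.76 in P30 and at 1.47, 0.871 and 1.71 in SBT. P30 overlapped SBT and reached P0, while P0 lay above SBT, and no comparison passed the test (adjusted p = 0.377 for P30 against P0, 0.32 for SBT against P30 and 0.13 for SBT against P0). The other 15 ligand genes stayed at 41 reads or fewer in each library. Wnt5b, with 23 to 41 reads, and Wnt2b, with 9 to 35, were the highest of them, Wnt11 had 2 to 18 and Wnt2 0 to 15, and Wnt3, Wnt3a and Wnt9b had no read at all. A count of 0 allows a share of up to 1.81e-05% of the reads in the shallowest library, which bounds counting error only, so Wnt3, Wnt3a and Wnt9b were not detectable at this depth. The summed FPKM of the 19 ligands was 10.5 ± 0.644 in P0, 14.1 ± 0.747 in P30 and 10.1 ± 0.665 in SBT (mean ± SD, n = 3 libraries), and the mean of Wnt5a alone was 7.19, 10.8 and 6.27 FPKM.

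**Figure D2:**
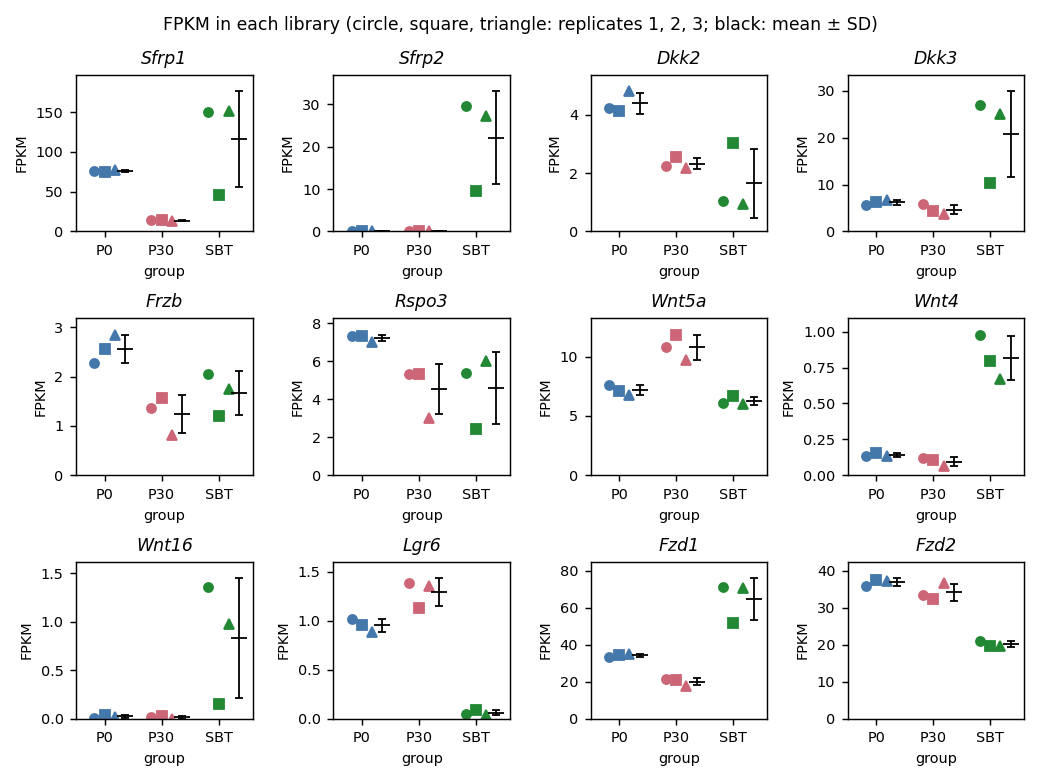
Each panel gives the FPKM of 1 gene (y axis, from 0) in the P0, P30 and SBT groups (x axis), with a symbol for each replicate number and the mean ± SD of 3 libraries in black. Sfrp1 falls from near 76 to near 14 FPKM between P0 and P30, and Lgr6 is under 0.1 FPKM in the 3 SBT libraries. The square of SBT replicate 2 lies apart from the other SBT symbols in Sfrp1, Sfrp2, Dkk2, Dkk3, Rspo3, Fzd1 and Wnt16. It is also the lowest SBT symbol in Frzb, but does not lie apart in Fzd2 or Wnt5a.

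Among the Frizzled receptors, Fzd2 held the largest share of the summed level in P0 and P30 and Fzd1 in SBT. The sum over the 10 genes was 119 ± 1.98 FPKM in P0, 93.7 ± 2.01 in P30 and 134 ± 19.4 in SBT. Fzd1 (chr5:4753839-4758035) and Fzd2 (chr11:102604396-102608058), related receptors of the same branch of the family, held 28.5% and 30.9% of it in P0, 21.3% and 36.5% in P30 and 48.2% and 15.3% in SBT. These shares kept apart within SBT, where Fzd1 held 46.3% to 50.0% and Fzd2 13.9% to 17.6%, SBT replicate 2 included.

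Fzd1 was at 33.1, 34.4 and 34.8 FPKM in P0, at 21.4, 20.7 and 17.8 in P30 and at 71.2, 51.6 and 70.8 in SBT. No 2 groups overlapped. The log2 fold change was -0.78 ± 0.0793 for P30 against P0 (adjusted p = 0.000309) and 1.70 ± 0.159 for SBT against P30 (adjusted p = 0.000685), and it was 1.84 without SBT replicate 2. Fzd2 was at 35.8, 37.7 and 37.4 FPKM in P0, at 33.6, 32.3 and 36.6 in P30 and at 21.1, 19.6 and 19.7 in SBT. The SBT libraries lay below the other 6, with a log2 fold change of -0.75 ± 0.0994 against P30 (adjusted p = 0.00205), while P0 and P30 overlapped (adjusted p = 0.22). Without P30 replicate 3 Fzd2 also passed between P30 and P0, at -0.17 (adjusted p = 0.00652).

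Fzd6 was at 14.2, 13.8 and 14.5 FPKM in P0, at 9.52, 9.07 and 9.01 in P30 and at 6.63, 5.57 and 6.59 in SBT. It fell in both comparisons without overlap, at log2 fold changes of -0.64 ± 0.0629 (adjusted p = 0.000272) and -0.54 ± 0.112 (adjusted p = 0.0103), and only the second was lost when a library was left out, with an adjusted p of 0.0509 without P30 replicate 1. Fzd7, at 18.5 to 19.3 FPKM in P0, 16.2 to 18.1 in P30 and 20.4 to 26.9 in SBT, and Fzd5, at 2.11 to 2.39, 2.34 to 2.56 and 2.92 to 4.01, rose in SBT against P30 by 0.52 (adjusted p = 0.0189) and 0.57 (adjusted p = 0.0251). Both calls were weak. For Fzd7 the adjusted p was 0.0821 and 0.0829 without P30 replicates 1 and 2 and 0.08 and 0.0686 without SBT replicates 1 and 3, and for Fzd5 it was 0.0731, 0.0864 and 0.0625 without P30 replicates 1, 2 and 3 and 0.101 and 0.0962 without SBT replicates 1 and 3. Fzd7 also passed between P30 and P0 without P30 replicate 3, at -0.24 (adjusted p = 0.00147).

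Fzd4 was at 3.56, 3.78 and 3.64 FPKM in P0, at 2.18, 2.13 and 2.76 in P30 and at 3.20, 2.68 and 3.30 in SBT. It fell in P30 against P0 (log2 fold change -0.65, adjusted p = 0.00425), and P30 and SBT overlapped through P30 replicate 3 and SBT replicate 2 (0.39, adjusted p = 0.0867). Without either of these libraries the second difference passed, at 0.50 (adjusted p = 0.0444) and 0.48 (adjusted p = 0.019). Fzd8 was at 8.77, 8.20 and 8.52 FPKM in P0, at 7.82, 7.60 and 7.70 in P30 and at 14.2, 7.96 and 12.5 in SBT, with a log2 fold change of 0.59 in SBT against P30 (adjusted p = 0.055) that was 0.80 (adjusted p = 0.000195) without SBT replicate 2. Fzd9, with 18 to 33 reads in P0, 25 to 27 in P30 and 3 to 13 in SBT, was lower in SBT (log2 fold change -1.69, adjusted p = 0.0203), a call that was lost without any 1 of P30 replicates 1, 2 and 3 (adjusted p = 0.0587, 0.0726 and 0.0605) or SBT replicates 1 and 3 (0.0585 and 0.055). Between SBT and P30, Fzd9 passed the filter on low counts through P30 alone. Fzd3 had 65 to 138 reads and Fzd10 none.

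**Figure D3:**
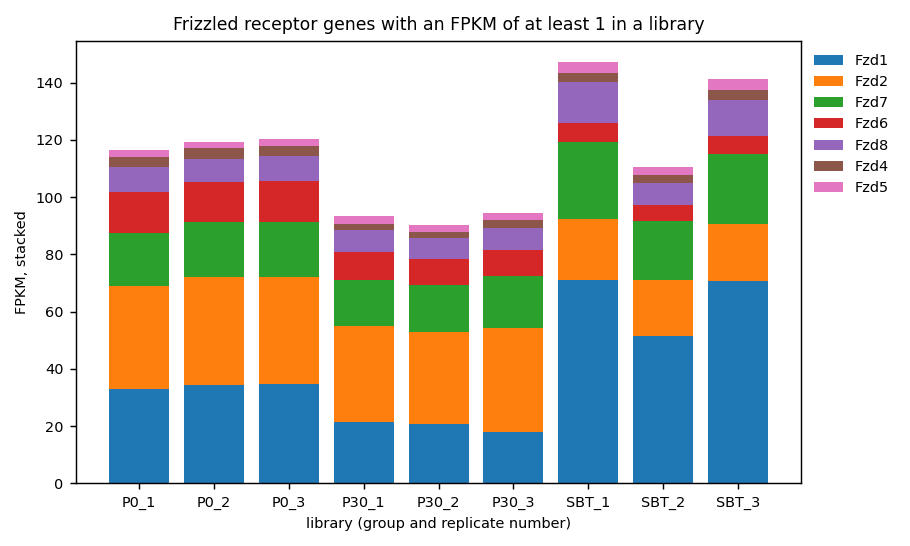
Stacked bars give the FPKM of the 7 Frizzled genes with at least 1 FPKM in a library (y axis, from 0) in each of the 9 libraries (x axis). The Fzd1 segment is the largest in the SBT bars (51.6 to 71.2 FPKM) and the Fzd2 segment is the largest in the P30 bars (32.3 to 36.6 FPKM).

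Lrp5 and Lrp6, the co-receptors of the β-catenin branch, were both lower in P30 than in P0 and SBT. Lrp6 was at 10.3, 10.7 and 9.68 FPKM in P0, at 6.56, 7.32 and 6.65 in P30 and at 11.0, 9.34 and 11.4 in SBT. Lrp5 was at 9.27, 8.96 and 8.76 FPKM in P0, at 5.30, 5.68 and 7.05 in P30 and at 8.83, 8.93 and 7.67 in SBT. P30 stayed below both other groups for both genes, while P0 and SBT overlapped. In P30 against P0 the log2 fold change was -0.59 ± 0.0693 for Lrp6 (adjusted p = 0.000673) and -0.60 ± 0.0993 for Lrp5 (adjusted p = 0.00433). For SBT against P30 it was 0.64 ± 0.116 for Lrp6 (adjusted p = 0.00664) and 0.51 ± 0.13 for Lrp5 (adjusted p = 0.0221). The last of these was lost without P30 replicate 1 or 2 (adjusted p = 0.0982 and 0.0981) or SBT replicate 1 (0.0832).

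Ryk, a receptor with an inactive kinase domain, was the steadiest of the highly expressed receptors, at 36.3 to 39.0 FPKM in P0, 36.8 to 44.7 in P30 and 34.8 to 40.6 in SBT. Its groups overlapped, with log2 fold changes of 0.05 ± 0.0827 for P30 against P0 (adjusted p = 0.733) and -0.08 ± 0.12 for SBT against P30 (adjusted p = 0.62). Ror2, the receptor best known for Wnt5a, was at 8.83, 8.86 and 8.60 FPKM in P0, at 7.67, 7.87 and 8.85 in P30 and at 5.86, 7.08 and 5.65 in SBT. The SBT libraries were the lowest, at -0.38 against P30 (adjusted p = 0.0519), and -0.49 (adjusted p = 0.00443) without SBT replicate 2. Between P30 and P0, which overlapped, Ror2 passed only without P30 replicate 3, at -0.18 (adjusted p = 0.0286). Ror1, at 2.42 to 2.55 FPKM in P0, 2.02 to 2.68 in P30 and 2.96 to 3.69 in SBT, rose in SBT against P30 by 0.52 ± 0.157 (adjusted p = 0.0385), and this call was lost without P30 replicate 1 or 2 (adjusted p = 0.138 and 0.1) or SBT replicate 1 or 3 (0.126 and 0.14).

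Of the R-spondins and their receptors, Lgr6 showed the largest fall among the members tested between SBT and P30. It was at 1.02, 0.961 and 0.881 FPKM in P0, at 1.39, 1.13 and 1.36 in P30 and at 0.0499, 0.0902 and 0.0404 in SBT, that is 131 to 171 reads in P0, 127 to 192 in P30 and 6, 13 and 5 in SBT. All 3 SBT libraries lay far below the other 6. Between SBT and P30, Lgr6 passed the filter on low counts through P30 alone, so its adjusted p there is a description. Lgr6 was 20.6-fold lower in SBT than in P30 (log2 fold change -4.36 ± 0.3, adjusted p = 0.000315) and -4.80 on the log2 scale without SBT replicate 2. Against P0, P30 was at 0.43 (adjusted p = 0.0547), which passed without P30 replicate 2 (0.52, adjusted p = 0.0396) or 3 (0.40, adjusted p = 0.0313). Lgr4, a receptor for the same ligands, was at 1.67 to 1.78 FPKM in P0, 1.27 to 1.63 in P30 and 1.16 to 1.28 in SBT, and SBT and P30 overlapped (-0.17, adjusted p = 0.459). Between P30 and P0 it passed only without P30 replicate 3 (-0.45, adjusted p = 0.00639). Lgr5, a stem cell marker of the intestine, had at most 1 read in a library.

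Rspo3, the R-spondin expressed here, was at 7.30, 7.32 and 7.03 FPKM in P0, at 5.31, 5.30 and 2.99 in P30 and at 5.37, 2.45 and 5.98 in SBT. P0 lay above the other 2 groups, which overlapped, and within each of these the library that stands apart was the low value. Rspo3 fell in P30 against P0 by a log2 fold change of -0.67 ± 0.184 (adjusted p = 0.0366). The adjusted p was 0.126, 0.124 and 0.111 without P0 replicates 1, 2 and 3, and 0.000349 at -0.45 without P30 replicate 3. The value for SBT against P30 was 0.03 ± 0.348 (adjusted p = 0.959). Rspo2 had 1 to 8 reads in P0 and P30, and 23, 2 and 27 in SBT, and Rspo1 and Rspo4 had at most 2. Znrf3, a ligase that clears Frizzled, was at 1.34 to 1.72 FPKM in P0, 1.66 to 2.06 in P30 and 1.07 to 1.57 in SBT, with -0.52 in SBT against P30 (adjusted p = 0.0561), which passed at -0.69 (adjusted p = 0.00474) without SBT replicate 2. Rnf43, the other ligase of this kind, had at most 1 read.

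Secreted antagonists showed the largest differences in level, and Sfrp1 dominated them. Sfrp1 (chr8:23411502-23449632), a decoy receptor with a Frizzled-like domain, held 85.1% of the summed antagonist FPKM in P0, 62.2% in P30 and 70.2% in SBT. It was at 75.7, 74.4 and 77.0 FPKM in P0, at 14.0, 14.3 and 12.9 in P30 and at 149.6, 46.3 and 152 in SBT. All P30 libraries lay below the other 6, and SBT replicates 1 and 3 lay above P0 while SBT replicate 2 lay below it. Sfrp1 was 5.56-fold lower in P30 than in P0 (log2 fold change -2.47 ± 0.0665, adjusted p = 2.33e-07), the largest fall among the members in that comparison, and -2.43 without P30 replicate 3. It was 8.50-fold higher in SBT than in P30 (3.09 ± 0.413, adjusted p = 0.00209), and 3.46 on the log2 scale without SBT replicate 2. Against P0, SBT was at 0.63 (adjusted p = 0.26), which was a log2 fold change of 1.0 (adjusted p = 2.26e-13) without SBT replicate 2.

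Sfrp2 (chr3:83766321-83774316), a relative of Sfrp1 whose promoter is printed above, had 0, 1 and 2 reads in P0, 3, 6 and 5 in P30 and 1117, 436 and 1058 in SBT. In SBT this was 29.6, 9.63 and 27.2 FPKM, against at most 0.170 in any other library. Sfrp2 passed the filter on low counts through SBT alone, so its adjusted p is a description. It rose in SBT by 7.44 ± 0.595 on the log2 scale against P30 (173-fold, adjusted p = 0.000395), and by 7.79 without SBT replicate 2. Against P0 the ratio of counts per effective library size was 1038, with a 95% interval of 355 to 5034 for counting error. This ratio rests on the 3 reads of P0, and the fitted log2 fold change moved from 9.90 to 9.31 without P0 replicate 1 and to 10.7 without P0 replicate 3. Dkk3, a divergent member of the Dkk family, was at 5.57, 6.21 and 6.73 FPKM in P0, at 5.77, 4.42 and 3.78 in P30 and at 26.8, 10.3 and 25.1 in SBT. SBT was above the other 6 libraries, which overlapped. Dkk3 rose 4.47-fold against P30 (log2 fold change 2.16 ± 0.351, adjusted p = 0.00436, and 2.48 without SBT replicate 2). Between P30 and P0 it was at -0.41 (adjusted p = 0.0973), and at -0.60 (adjusted p = 0.0179) without P30 replicate 1.

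Dkk2 and Frzb, like Sfrp1, fell in P30 against P0. Dkk2, which binds Lrp5 and Lrp6, was at 4.25, 4.15 and 4.81 FPKM in P0, at 2.25, 2.55 and 2.18 in P30 and at 1.03, 3.03 and 0.926 in SBT. SBT replicates 1 and 3 lay below P30 and SBT replicate 2 above it. Dkk2 fell in P30 against P0 (-0.94 ± 0.111, adjusted p = 0.000718), while SBT against P30 was at -0.46 ± 0.417 (adjusted p = 0.422), or -1.24 (adjusted p = 0.00049) without SBT replicate 2. Frzb, also a Wnt-binding decoy, was at 2.27, 2.56 and 2.84 FPKM in P0, at 1.36, 1.56 and 0.804 in P30 and at 2.06, 1.19 and 1.74 in SBT. It fell 2.06-fold in P30 against P0 (-1.04 ± 0.213, adjusted p = 0.0111), with an adjusted p of 0.0632 without P0 replicate 3, and SBT overlapped P30 (adjusted p = 0.315). Sfrp4 had 1 to 3 reads in P0 and P30 and 10, 5 and 8 in SBT, Dkk1 had at most 5, Dkk4 and Wif1 at most 2, and Sfrp5 had none. Summed over the 10 antagonist genes the level was 89.0 ± 2.30 FPKM in P0, 22.2 ± 1.92 in P30 and 162 ± 79.4 in SBT, the last from 209, 70.5 and 207 in replicates 1, 2 and 3.

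**Figure D4:**
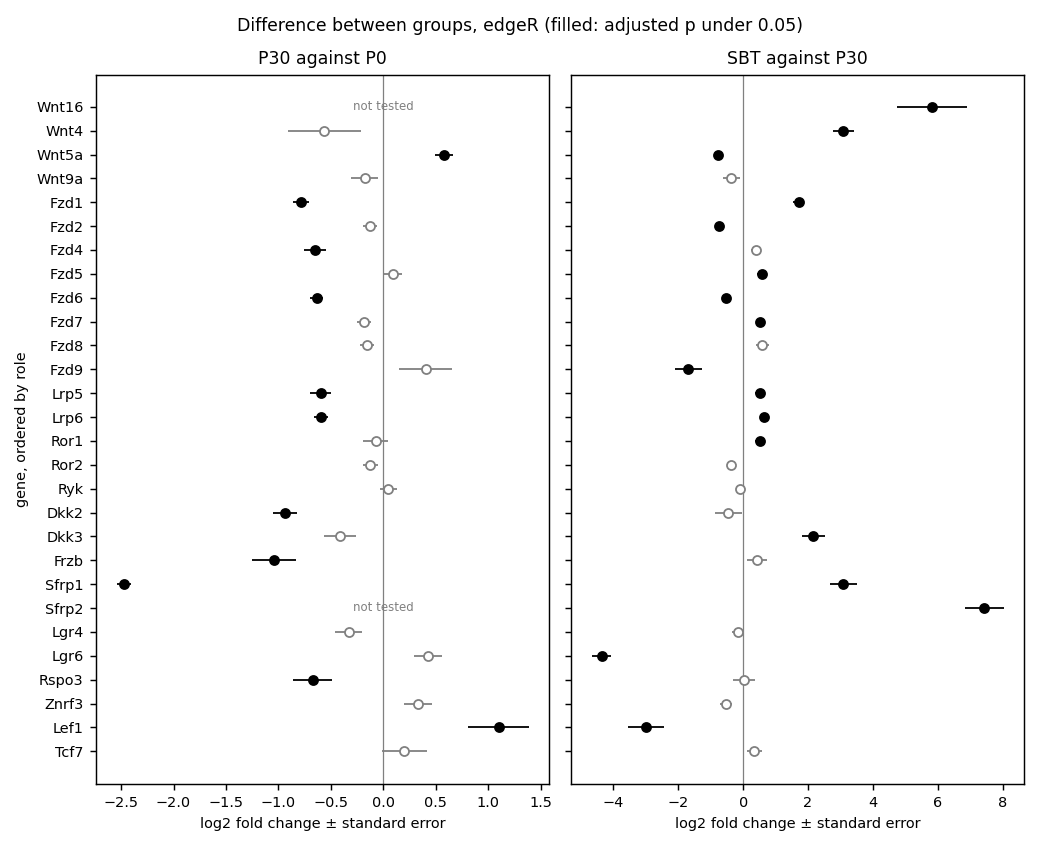
Points give the log2 fold change and bars its standard error from edgeR for P30 against P0 (left) and SBT against P30 (right), filled where the adjusted p was under 0.05, for the 28 genes in order of role. The x axes differ between the panels. Sfrp1 is the leftmost point on the left at -2.47, and Sfrp2 the rightmost on the right at 7.44, followed by Wnt16, whose fitted value depends on the prior count.

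The genes that act in the nucleus were low. Lef1, a DNA-binding partner of β-catenin, had 28, 15 and 24 reads in P0, 54, 24 and 34 in P30 and 1, 11 and 3 in SBT, at most 0.304 FPKM. In FPKM the P30 libraries lay above P0 and the SBT libraries below both. It rose in P30 against P0 by 1.10 ± 0.287 (adjusted p = 0.0311), a call lost without P0 replicate 1, 2 or 3 (adjusted p = 0.0788, 0.122 and 0.101) or P30 replicate 1 (0.0969). It was lower in SBT than in P30 at -2.99 ± 0.559 (adjusted p = 0.00755), and at -4.15 without SBT replicate 2. Between SBT and P30, Lef1 passed the filter on low counts through P30 alone. Tcf7, a related factor, was at 1.01 to 1.28 FPKM in P0, 0.950 to 1.51 in P30 and 1.50 to 1.79 in SBT, with no call between P30 and P0 (adjusted p = 0.55) or SBT and P30 (adjusted p = 0.293). Axin2, widely used as a readout of β-catenin signalling, had 3 to 12 reads in P0, 1 to 6 in P30 and 6 to 15 in SBT, and was too low to be tested between P30 and either other group. Between SBT and P0 its log2 fold change was 0.78 ± 0.489 (adjusted p = 0.251).

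Between SBT and P0, which share all their libraries with the comparisons above, 32 members were tested, and 9 were higher in SBT (28.1%, against 17.9% of all genes) and 7 lower (21.9%, against 17.0%). The higher ones were Fzd1, Fzd5, Fzd7, Ror1, Wnt16, Wnt4, Tcf7, Dkk3 and Sfrp2, and the lower ones Fzd2, Fzd6, Lgr4, Lgr6, Ror2, Lef1 and Dkk2. Sfrp2 and Wnt16 passed the filter on low counts through SBT alone here, and Lgr6 and Lef1 through P0 alone, so their calls are descriptions. Over the 32 tested members the median log2 fold change was -0.10, against 0.0068 over all genes. Lrp5 and Lrp6 stood at -0.08 ± 0.078 and 0.06 ± 0.0963 (adjusted p = 0.474 and 0.656), and Wnt5a at -0.19 (adjusted p = 0.096). Without SBT replicate 2 the count was 28 among 64.1% of all genes, and without P0 replicates 1 and 2 it was 10 and 9 among 17.1% and 17.5%, so here too the count moved with that of all genes. The calls of Fzd7, Ror1, Tcf7, Lef1 and Dkk2 were lost without any 1 of P0 replicates 1, 2 and 3 and SBT replicates 1 and 3, with adjusted p of 0.117 to 0.149, 0.0638 to 0.0798, 0.0684 to 0.169, 0.077 to 0.123 and 0.0966 to 0.117. That of Lgr4 was lost without P0 replicate 1 or 2 (adjusted p = 0.0674 and 0.0602) and that of Fzd5 without P0 replicate 2 (0.0535). Without SBT replicate 2, Lef1 moved from -1.88 to -3.06 and Dkk2 from -1.38 to -2.16, and among the genes then called were Lrp6 (0.14, adjusted p = 0.014), Wnt5a (-0.24, adjusted p = 0.00248) and Fzd8 (0.66, adjusted p = 1.57e-07).

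A further 59 genes of the pathway were looked up by list, and 52 of them were tested in the first and second comparisons. In P30 against P0, 7 rose (13.5% of those tested, against 7.21% of all genes) and 12 fell (23.1%, against 9.21%), with a median log2 fold change of -0.09. Between SBT and P30, 13 rose (25.0%, against 16.0% of all genes) and 7 fell (13.5%, against 14.0%, the share over all genes), with a median of 0.15. The lists below hold few tested genes each, and their counts are to be read against these shares of all genes. Ctnnb1, which encodes β-catenin, was at 93.7 to 105 FPKM in P0 and P30 and 84.3 to 87.9 in SBT and passed neither test (adjusted p = 0.626 and 0.17).

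Among 12 listed feedback and target genes, 9 were tested. In P30 against P0, Apcdd1, an inhibitor at the cell surface (1.17, adjusted p = 0.0222), Nkd2 (0.44, adjusted p = 0.00536) and Myc (0.31, adjusted p = 0.0117) rose, and the transcription factor Tbx3 fell (-0.85, adjusted p = 0.00114). In SBT against P30, Nkd1 and Nkd2, which bind Dishevelled and dampen the signal, rose by 2.42 (adjusted p = 0.00159) and 0.93 (adjusted p = 0.00115), while Wisp1 and Cd44 were lower at -3.33 (adjusted p = 0.000328) and -1.66 (adjusted p = 0.00489). Wisp1, a secreted matrix-associated protein, was at 31.5 to 34.8 FPKM in P0, 22.5 to 34.7 in P30 and 2.13 to 3.55 in SBT. Members of the list thus moved in both directions in both comparisons.

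Of 12 planar polarity genes, 11 were tested. In P30 against P0, 3 fell, namely Daam2 (-1.33, adjusted p = 0.00197), Dchs1 (-0.62, adjusted p = 0.000243) and Daam1 (-0.46, adjusted p = 0.00355). The 3 that rose in SBT against P30 were Daam2 (1.98, adjusted p = 0.0104), Prickle1 (1.50, adjusted p = 0.0119) and Dchs1 (1.47, adjusted p = 0.000315). Dchs1, a large cadherin, was at 5.76 to 6.02 FPKM in P0, 3.85 to 3.88 in P30 and 9.92 to 11.5 in SBT, with no overlap between groups.

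All 12 nuclear partners were tested. In P30 against P0, 1 rose (Ctnnbip1, which binds β-catenin and blocks its partners, 0.60, adjusted p = 0.0179) and 4 fell, led by Pygo1 (-1.07, adjusted p = 0.00499), Tle2 (-0.73, adjusted p = 0.00695) and Tle3 (-0.53, adjusted p = 0.000386). In SBT against P30, 5 rose, led by the co-repressors Tle2 (1.31, adjusted p = 0.00685) and Tle3 (0.91, adjusted p = 0.00318) and the co-activator Bcl9l (0.74, adjusted p = 0.0135), and Tle1, another co-repressor, was lower at -0.83 (adjusted p = 0.0219). Of 14 Dishevelled and destruction complex genes, all tested, 2 rose and 2 fell in P30 against P0, at most 0.39 in size (Csnk1e, adjusted p = 0.00303). The SBT libraries had 2 that rose against P30, led by Amer1, which binds Apc at the membrane (1.31, adjusted p = 0.00594), and Dvl1 was lower (-0.60, adjusted p = 0.00742). Of 7 surface regulators 4 were tested. Cthrc1, a secreted protein that helps Wnt bind its receptors, fell in P30 against P0 (-0.54, adjusted p = 0.0194) together with the co-receptor Ptk7 (-0.25, adjusted p = 0.0241), and Gpc4 rose (0.29, adjusted p = 0.0139). In SBT against P30 Cthrc1 was at 0.752 to 1.31 FPKM against 5.92 to 7.28 (-2.70, adjusted p = 0.00058), Gpc4 was lower (-0.64, adjusted p = 0.0035) and Ptk7 higher (0.52, adjusted p = 0.00803). Of the 2 secretion genes, Wls, the carrier that brings Wnt to the cell surface, was at 31.3 to 33.2 FPKM in P0, 33.4 to 39.1 in P30 and 22.2 to 29.6 in SBT, and it was lower in SBT than in P30 (-0.45, adjusted p = 0.0456), with an adjusted p of 0.151 between P30 and P0.

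The 28 members not described by value in each library reached at most 138 reads in a library, and 17 of them had 3 reads or fewer in all 9 libraries. No read was counted for 5 of them, Fzd10, Sfrp5, Wnt3, Wnt3a and Wnt9b.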

How the data were processed

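RNA was sequenced from 9 libraries of mouse CDCs, grouped by their labels as P0, P30 and SBT. The authors deposited raw counts for each gene, and FPKM values, which for the members were proportional to count over gene length within each library (to within 0.5%). The submitters' processing notes name TopHat2 2.0.9, Bowtie2 2.0.6 and mm9, but 53462 of the 54532 genes in the table had exactly the coordinates of GENCODE release M21 on GRCm38, which are used here. The labels name a TruSeq kit, whereas the study's methods name an NEBNext kit or a BGI method, with an Illumina or a BGI sequencer. The methods do not say which samples had which, so they leave unknown whether these differed between groups. The counting program and whether it used strand are not given in the sources used here. The authors' own DESeq fold changes, p-values and group means stand in the same table and were not used.

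Counts were tested with edgeR 4.0.16 (R 4.3.3): the quasi-likelihood test on TMM-normalized counts, after filterByExpr with a minimum count of 10 and a minimum total of 15, with 2 groups per fit and Benjamini-Hochberg adjustment over all genes tested, threshold 0.05. Standard errors are the log2 fold change divided by the square root of F. The filter, the fits and the adjustment covered the whole table. The test was also run on simulated counts with the same spread for every gene and no library that stood apart. That run therefore does not show how the test behaves on these libraries. A floor of 3 counts and 95% intervals cover counting error only. Genes named are members with a group mean of at least 1 FPKM or a call in any comparison, and of the other pathway lists at most the 4 called genes with the largest change. Members, gene lists and tests were chosen with earlier results of these data known. Alternatives were DESeq2 1.42.0, RLE size factors, no filter, a fit of all 9 libraries, the replicate number as block, limma 3.58.1 on log2(FPKM + 1) or log2(FPKM + 0.1), and each library left out. Tables were built in python 3.11.15 with pandas 2.3.3 and scipy 1.17.1, and plots in matplotlib 3.10.9.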

Additional observations from a re-analysis of the deposited data

How the results depend on the processing

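The number of members called was 11 between P30 and P0, 17 between SBT and P30 and 16 between SBT and P0. With each library left out in turn it ranged from 8 to 17 (17 without P30 replicate 3), from 11 (without P30 replicate 1) to 24 (without SBT replicate 2) and from 9 (without P0 replicate 2) to 28 (without SBT replicate 2). The share of all genes called moved with them, from 7.39% to 31.7%, from 12.3% to 50.2% and from 17.1% to 64.1%, against 16.4%, 30.0% and 34.8% with all libraries of the groups. Under DESeq2, RLE size factors, no filter on low counts, all 9 libraries in the fit and limma on FPKM the counts were 8 to 12, 16 to 22 and 14 to 20. The share of all genes called under these settings was 4.72% to 16.4%, 19.2% to 41.2% and 19.4% to 34.8%. The lowest share, 4.72%, and the lowest count, 8, both came from all 9 libraries in the fit.

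Same-numbered libraries did not deviate together (correlations of 0.0116, 0.0373 and -0.0456 between P30 and P0, 0.0231, -0.172 and -0.244 between SBT and P30, and -0.0542, -0.0149 and 0.0313 between SBT and P0), so the numbers were not taken to pair the samples. With the replicate block the counts were 11, 16 and 13, beside 13.0%, 22.4% and 27.7% of all genes.

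Over the named genes and these alternatives, 942 results kept direction and side of the threshold, 78 lost a call, 37 gained one and 9 changed sign, all of them without a call in either fit. Rspo3 between SBT and P30 went from a log2 fold change of 0.027 to -0.018 with the replicate block, -0.016 under limma on log2(FPKM + 1) and -0.030 on log2(FPKM + 0.1), and ranged from -0.21 to 0.33 with each library left out in turn (below 0 without P30 replicate 3 or SBT replicate 1 or 3). Ror1 between P30 and P0 was at -0.074 and ranged from -0.16 to 0.041 (above 0 without P30 replicate 1). Ryk was at 0.048 between P30 and P0 and ranged from -0.042 (without P30 replicate 3) to 0.10, and was at -0.025 between SBT and P0 and ranged from -0.093 to 0.020 (without SBT replicate 1). Besides the calls whose change is given above, Lef1 and Rspo3 between P30 and P0 were lost with all 9 libraries in the fit and under limma, Dkk2 with all 9 libraries in the fit (adjusted p = 0.179), Ror1 between SBT and P30 under limma and with the block, and Wnt16 between SBT and P0 under limma on log2(FPKM + 1) (adjusted p = 0.052). Between SBT and P30, calls of Fzd8 and Znrf3 were gained under DESeq2, no filter and all 9 libraries, and of Fzd4 and Ror2 with all 9 libraries. Between SBT and P0, Frzb was gained under DESeq2 and no filter, and Fzd9 under no filter, all 9 libraries and limma. Dkk3 between P30 and P0 was gained under no filter. Between SBT and P0, the calls of Tcf7, Fzd7, Lef1, Dkk2 and Ror1 changed in 9, 8, 7, 5 and 5 of 13 alternatives. The cause was not tested.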
